A study of Mus musculus with 5 samples.

Results

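The nicotinic acetylcholine receptor subunit genes examined here were Chrna3, Chrna4, Chrna5, Chrna6, Chrna7, Chrnb2, Chrnb3 and Chrnb4, which encode the neuronal α3 to α7 and β2 to β4 chains. They were chosen by name, and each symbol was found once among the 53700 gene IDs of the deposited count table, so that 8 of 53700 genes are described. The table held ribosome-bound mRNA of mouse midbrain, purified by BAC-TRAP, in which a tagged ribosomal protein, L10a, is switched on by Cre and pulled down with the mRNAs it carries. All mice were C57BL/6, carried the L10a tag, were 4 months old and received AAV:THCre, a virus in which a tyrosine hydroxylase (Th) promoter drives Cre, with tissue collected 1 month past the induced deletion. The groups were L10a;Esrrg WT, with intact Esrrg (3 libraries, replicates 2, 3 and 4, called WT), and L10a;Esrrg Flox, in which the same Cre removes exon 2 of Esrrg (2 libraries, replicates 2 and 4, called Flox). Esrrg encodes estrogen-related receptor γ, an orphan nuclear receptor. Each library was a pool of 8 animals, so the spread between libraries is a spread between pools, and p-values measure no more than that. Cre from this promoter acts in Th-expressing cells and was also given to the control mice. In such bulk pools, fewer cells of a type and less RNA per cell cannot be told apart.

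Nicotinic receptors are pentameric cation channels opened by acetylcholine. In heteromeric receptors the binding sites lie between an α chain (α3, α4 or α6) and a β chain (β2 or β4), while α5 and β3 are accessory chains, and α7 can form a receptor of its own with high calcium permeability. Midbrain dopaminergic neurons are known for receptors that contain α4, α6, β2 and β3, through which acetylcholine and nicotine promote dopamine release. The comparison asked whether the subunit mRNAs on ribosomes of these cells differed when Esrrg was deleted.

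Libraries held 20635855 to 23105058 assigned counts. Of the 12 dopaminergic markers none was at 0 in any library, and their summed normalized counts overlapped between groups (53780 to 63410 in WT, 54450 and 57200 in Flox). Taken singly, 10 of the 12 had a log2 fold change (Flox over WT) below 0 and 2 above, with a median of -0.15. Both Flox libraries lay below every WT library for 5 of 12 and above for 2 of 12, beside 22.9% and 19.9% of all genes tested. Only Ret had a DESeq2 adjusted p under 0.05 (log2 fold change -0.40, adjusted p = 0.00282), where 4.25% of all genes did and were lower. Normalized counts are counts divided by DESeq2 size factors. Th, the rate-limiting enzyme of dopamine synthesis, had 10890, 9849 and 12810 normalized counts in WT and 10220 and 10950 in Flox. Esrrg itself had 1763, 1643 and 1726 normalized counts in WT and 1504 and 1170 in Flox (DESeq2 log2 fold change -0.35 with SE 0.13, adjusted p = 0.0734). Exons that the Cre does not remove also count toward Esrrg, so its total does not measure the deletion. Markers of other cells were present in every group. Summed GABAergic markers (Gad1, Gad2 and Slc32a1) had 19680 to 20440 normalized counts in WT and 18000 and 16100 in Flox. Summed serotonergic and noradrenergic markers ran from 2252 to 4598 in WT and were 4280 and 1325 in Flox, with both libraries numbered 2 highest. Summed microglial markers were at 1050 to 1843 in WT and at 3117 and 6517 in Flox. Summed endothelial markers were at 90.3 to 195 in WT and at 210 and 600 in Flox. Of the 8 microglial markers 6 were called higher, and of the 5 endothelial ones 3, where 1.81% of all genes tested were. Called here means a DESeq2 adjusted p under 0.05 with a difference of 1.5-fold or more. Summed astrocyte, oligodendrocyte and glutamatergic markers overlapped between the groups, and 0 of these genes were called.

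By the GENCODE M21 annotation of GRCm38, all 8 are protein-coding genes, and 5 of them lie in clusters. Chrna5 (chr9:54980880-55007779, plus strand), Chrna3 (chr9:55010111-55026562, minus strand) and Chrnb4 (chr9:55028154-55048779, minus strand) together span 67900 bases, with gaps of 2331 and 1591 bases. Chrnb3 (chr8:27368711-27399730, plus strand) and Chrna6 (chr8:27403212-27413944, minus strand) converge across a gap of 3481 bases. Chrna4 (chr2:181018380-181043546), Chrna7 (chr7:63098692-63212569) and Chrnb2 (chr3:89746195-89764632) stand apart, each on the minus strand. Exons of Chrnb2 share 1365 bases (16.29% of its exon length) with Adar on the plus strand, while the other 7 share no exon base with an annotated gene. The libraries were not strand-specific, so reads from these shared bases cannot be assigned to either gene, and Adar was itself called lower in Flox (DESeq2 log2 fold change -0.97 with SE 0.145, adjusted p = 6.16e-08).

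The start regions of these genes show what sequence lies in front of the subunits whose levels are given next. RefSeq windows (GRCm38.p6, 250 bases before to 50 bases after the start) matched 6 of the 8 genes in 7 windows, with no entry for Chrna6 and Chrnb3. The 9-letter estrogen-related receptor element TCAAGGTCA, searched on both strands, was in 0 of these 7 windows and in 0.423% of all 32851 windows. Its inner hexamer AGGTCA, which other nuclear receptors also bind, was in 2 of the 7 (Chrnb2 and the second Chrna5 window) and in 16.3% of all windows. The GC box GGGCGG, a letter string bound by Sp1 family factors, was in 5 of the 7 and in 35.7% of all windows. A match is a string of letters, not a bound site, and these windows are short. The 4 windows below are those of the called gene, of the most abundant subunit, and of the genes with the hexamer, each 5′ to 3′ on the gene's strand, with hexamers and GC boxes of either strand in capitals. The Chrna7 window (chr7:63212477-63212776, minus strand) is 70% G and C and has 1 GC box, starting 122 bases before the start. The Chrna4 window (chr2:181039128-181039427, minus strand) is 74.3% G and C and has 3 GC boxes. It lies around a RefSeq start inside the annotated gene, whose outermost start (181043546) was not searched. The Chrnb2 window (chr3:89764583-89764882, minus strand) has the hexamer on the other strand, 205 bases before the start, and 1 GC box. The second Chrna5 window (chr9:54981238-54981537, plus strand) has the hexamer 242 bases before the start and 4 GC boxes.
Chrna7: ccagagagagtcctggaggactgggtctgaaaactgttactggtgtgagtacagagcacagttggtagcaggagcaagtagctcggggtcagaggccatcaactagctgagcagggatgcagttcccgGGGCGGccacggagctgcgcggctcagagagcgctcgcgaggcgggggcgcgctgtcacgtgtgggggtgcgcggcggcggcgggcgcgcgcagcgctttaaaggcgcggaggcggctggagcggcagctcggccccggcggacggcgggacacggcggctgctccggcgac
Chrna4: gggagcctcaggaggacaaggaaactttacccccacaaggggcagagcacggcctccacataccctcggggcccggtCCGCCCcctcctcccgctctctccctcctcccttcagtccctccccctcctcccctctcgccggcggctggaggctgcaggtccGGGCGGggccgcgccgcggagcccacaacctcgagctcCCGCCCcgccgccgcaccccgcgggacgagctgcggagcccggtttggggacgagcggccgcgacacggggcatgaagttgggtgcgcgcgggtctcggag
Chrnb2: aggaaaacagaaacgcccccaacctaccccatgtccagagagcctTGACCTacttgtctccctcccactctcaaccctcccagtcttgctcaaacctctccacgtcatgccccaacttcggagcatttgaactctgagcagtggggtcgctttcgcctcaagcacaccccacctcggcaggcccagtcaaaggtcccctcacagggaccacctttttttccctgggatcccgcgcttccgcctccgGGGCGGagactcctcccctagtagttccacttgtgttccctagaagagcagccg
Chrna5: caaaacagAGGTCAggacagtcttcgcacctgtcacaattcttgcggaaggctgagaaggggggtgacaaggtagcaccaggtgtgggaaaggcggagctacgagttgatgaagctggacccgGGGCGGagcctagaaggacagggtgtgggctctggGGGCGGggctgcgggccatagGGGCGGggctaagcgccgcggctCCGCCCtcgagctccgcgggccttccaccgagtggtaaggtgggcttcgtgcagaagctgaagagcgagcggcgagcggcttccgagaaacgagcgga

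Chrna7 was the only one of the 8 subunit genes called lower in Flox, at 2.69-fold, and Chrna4 was lower by less than the fold threshold. The other 6, Chrna6 and Chrnb3 among them, did not pass the test. A call needed both a DESeq2 adjusted p under 0.05 over all 15228 genes tested and a difference of 1.5-fold or more, and all 8 members were among these genes. The call was made for 1 of 8 members lower, where 1.46% of all genes tested were called lower, and for 0 of 8 higher, where 1.81% were called higher. At any fold, 2 of 8 had an adjusted p under 0.05 and were lower (4.25% of all genes), and 0 of 8 were higher (4.33%). In 4 of 8 both Flox libraries lay below every WT library, an arrangement found in 22.9% of all genes tested. In 0 of 8 both lay above, where 19.9% of all genes did. The log2 fold changes ran from -1.43 to 0.10 with a median of -0.23, beside a median of -0.01 over all genes tested, and 7 of 8 were below 0.

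**Figure D1:**
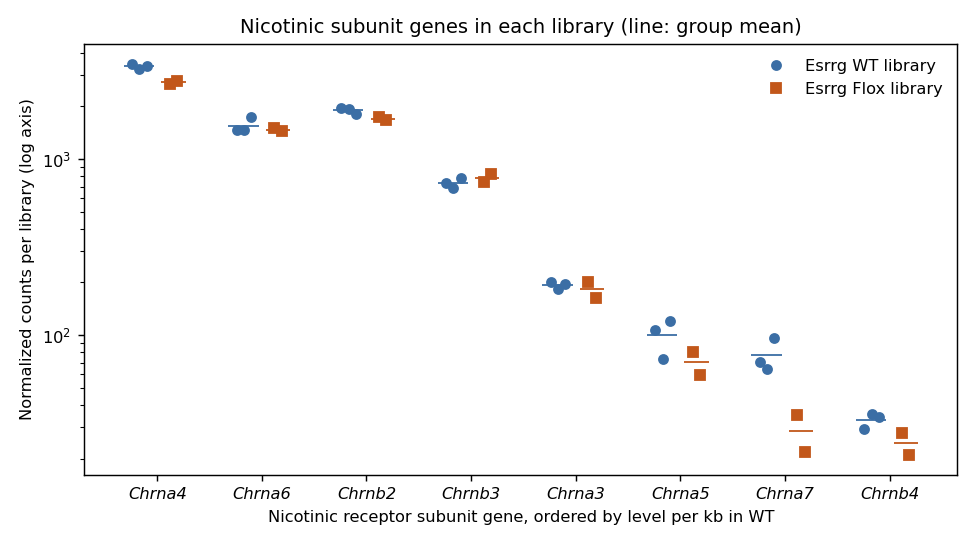
Normalized counts (log axis) of the 8 subunit genes in each library, with WT libraries as circles, Flox libraries as squares and group means as lines. Chrna7 is the gene with the widest gap, from 64.2 in the lowest WT library to 35.5 in the higher Flox library.

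Among the α chains that bind acetylcholine, Chrna7 (ENSMUSG00000030525.9), the gene of the homomeric receptor, had 70.6, 64.2 and 97 normalized counts in WT and 35.5 and 21.9 in Flox. Both Flox libraries were below the lowest WT library, and WT replicate 4 was the highest of the 5. Means were 77.3 ± 17.4 (SD, n = 3) for WT and 28.7 ± 9.67 (SD, n = 2) for Flox. On the log2 scale Flox differed from WT by -1.43 (SE 0.39, DESeq2 adjusted p = 0.00807), a percent change of -62.8 with a 95% interval from -78.3 to -36.5. Of the 222 genes called lower, 18 had a more negative log2 fold change. The median of the mean normalized counts of the 222 was 385.5, well above both Chrna7 means. Chrna7 rests on 63 to 101 raw counts per WT library and on 37 and 22 in Flox. Its coefficient of variation in WT was 22.5%, where counting alone gives 11.4%. The call depended on the test and on single libraries, and with edgeR's quasi-likelihood test the adjusted p was 0.0529. Without WT replicate 2 the DESeq2 adjusted p was 0.0769, and without WT replicate 4 (log2 fold change -1.23, SE 0.49) or Flox replicate 4 (-1.12, SE 0.50) DESeq2 gave none. With the replicate block (-1.56, SE 0.63) it gave none either. In these fits DESeq2's independent filtering, which sets aside genes with low mean counts, left Chrna7 out. Flox was lower in all 12 alternative fits.

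Per 1000 Th counts, Chrna7 stood at 6.48, 6.52 and 7.57 in WT and at 3.48 and 1.998 in Flox, so the groups were also apart relative to the dopaminergic marker. With size factors taken from the dopaminergic markers alone, the log2 fold change was -1.26 (SE 0.40, DESeq2 adjusted p = 0.0315). That scaling moved the median of all genes tested from -0.01 to 0.14. The GABAergic sum was lower and the microglial and endothelial sums were higher in both Flox libraries, as given above, and their part in the Chrna7 difference was not tested.

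**Figure D2:**
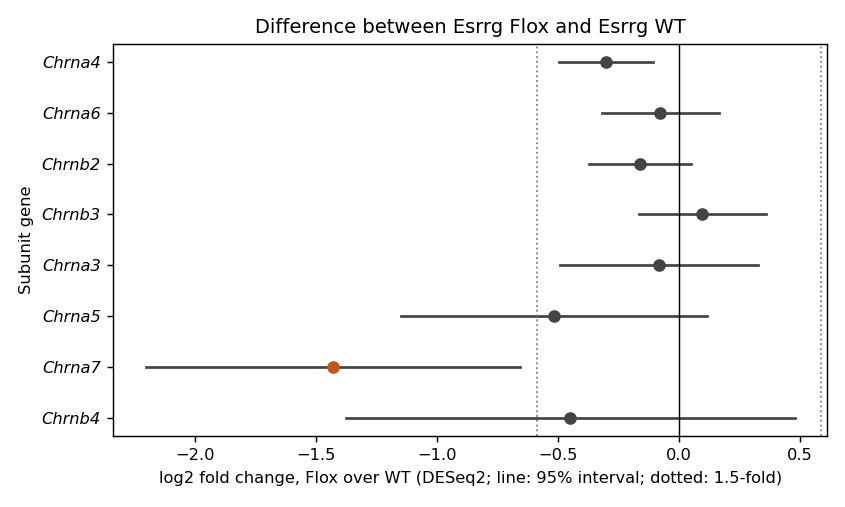
The log2 fold change of each subunit gene, Flox over WT, from DESeq2, with 95% intervals as lines and the 1.5-fold threshold as dotted lines. The interval of Chrna7 lies wholly below the threshold line, that of Chrna4 is below 0 but inside the threshold, and those of the other 6 genes include 0.

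Chrna4 (ENSMUSG00000027577.15), which encodes the α chain of the widespread α4β2 receptor, had 3495, 3269 and 3379 normalized counts in WT and 2685 and 2800 in Flox. Again both Flox libraries were below all WT libraries, and the WT libraries varied little (coefficient of variation 3.33%). Its log2 fold change was -0.30 (SE 0.099, DESeq2 adjusted p = 0.0329), a percent change of -18.9 with a 95% interval from -29.1 to -7.2. This adjusted p was above 0.05 with edgeR (0.0845), with scaling on the dopaminergic markers (log2 fold change -0.15, adjusted p = 0.608), with the replicate block (0.166), and in DESeq2 with any 1 library left out (0.0571 to 0.336).

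Chrna6 (ENSMUSG00000031491.11), the α chain most typical of dopaminergic neurons, had 1462, 1463 and 1733 normalized counts in WT and 1501 and 1445 in Flox. The groups overlapped, and only WT replicate 4 stood above the other 4 libraries. Its log2 fold change was -0.08 (SE 0.12, DESeq2 adjusted p = 0.812), with a 95% interval of -19.9% to 12.2%, and it turned to 0.08 with scaling on the dopaminergic markers and to 0.01 without WT replicate 4. Per 1000 Th counts, Chrna6 was at 134, 149 and 135 in WT and at 147 and 132 in Flox, with a mean of 139 in each group.

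Chrna3 (ENSMUSG00000032303.9), the α chain of ganglionic and habenular receptors, had 201, 183 and 195 normalized counts in WT and 201 and 164 in Flox. Flox replicate 2 lay at the top of the WT range and Flox replicate 4 below it. The log2 fold change was -0.08 (SE 0.21, DESeq2 adjusted p = 0.891), and it turned to 0.07 with scaling on the dopaminergic markers and to 0.05 without Flox replicate 4. Chrna5 (ENSMUSG00000035594.11), whose accessory chain adds to the calcium permeability of α4β2 receptors, had 108, 73.4 and 120.1 normalized counts in WT and 80.7 and 59.7 in Flox. The Flox replicate 2 value fell inside the broad WT range. For Chrna5 it was -0.52 (SE 0.32, DESeq2 adjusted p = 0.38), with a 95% interval of -54.9% to 8.4%, which also holds differences past the fold threshold.

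Of the β chains, Chrnb2 (ENSMUSG00000027950.8), the partner of α4 and α6, had 1962, 1938 and 1804 normalized counts in WT and 1737 and 1667 in Flox. Both Flox libraries were below the WT libraries, but the gap was narrow. Flox differed by -0.16 on the log2 scale (SE 0.11, DESeq2 adjusted p = 0.428), with a 95% interval of -22.6% to 3.6%. Reads from the bases that Chrnb2 shares with Adar cannot be assigned to either gene. Ambiguous reads, which fit several genes, were counted apart from all genes, and how many came from these bases was not tested. Chrnb3 (ENSMUSG00000031492.14), the accessory chain found beside α6, had 736, 689 and 778 normalized counts in WT and 744 and 828 in Flox. It was the only member with a value above 0, and its groups overlapped. The log2 fold change was 0.10 (SE 0.13, DESeq2 adjusted p = 0.769), with a 95% interval of -10.8% to 28.2%. Chrnb4 (ENSMUSG00000035200.8), the partner of α3, had 29.5, 35.7 and 34.6 normalized counts in WT and 27.9 and 20.9 in Flox. With 21 to 36 raw counts per library its 95% interval ran from -61.4% to 39.4% around a log2 fold change of -0.45 (SE 0.47, DESeq2 adjusted p = 0.676).

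For neighbours in the genome, the fold changes can be set side by side. In the chromosome 9 cluster the log2 fold changes were -0.52 for Chrna5, -0.08 for Chrna3 and -0.45 for Chrnb4, each with an interval that included 0. In the chromosome 8 pair they were 0.10 for Chrnb3 and -0.08 for Chrna6. No difference between these fold changes was tested.

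Levels were compared between genes as normalized counts per kb of exon. In WT the order was Chrna4 (673 ± 22.5 per kb, SD, n = 3), Chrna6 (534 ± 53.7), Chrnb2 (227 ± 10.1), Chrnb3 (115 ± 7.02), Chrna3 (36.7 ± 1.72), Chrna5 (32.1 ± 7.73), Chrna7 (17.1 ± 3.87) and Chrnb4 (8.93 ± 0.885). The WT ranges of neighbours in this order did not overlap, except for Chrna3 and Chrna5, which exchanged places in WT replicate 4. A step of 3.14-fold, the largest between neighbours by exon length, lay between Chrnb3 and Chrna3. It separated the 4 chains of the dopaminergic receptors from the other 4, and Chrna4 stood above 87.1% of the genes tested while Chrnb4 stood above 8.6%. In Flox the means per kb were 546 ± 16.3 for Chrna4 and 507 ± 13.4 for Chrna6 (SD, n = 2), and 6.37 ± 2.15 for Chrna7 and 6.55 ± 1.33 for Chrnb4. Chrna7 was thus the second lowest in Flox replicate 2 (7.89 beside 7.48 for Chrnb4) and the lowest in Flox replicate 4 (4.86 beside 5.61). The order of the WT means was the same with the longest protein-coding transcript as the length, a choice made after the data had been seen. By that length Chrna7 stood at 37.2 per kb, beside 41.0 for Chrna5, and the largest step, 4.16-fold, lay between Chrna7 and Chrnb4, where that between Chrnb3 and Chrna3 was 3.61-fold. Over the exon length that Chrnb2 does not share with Adar, its WT mean was 271 per kb rather than 227, and the order was unchanged. The distances between ranks therefore depended on the length, and their order did not.

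**Figure D3:**
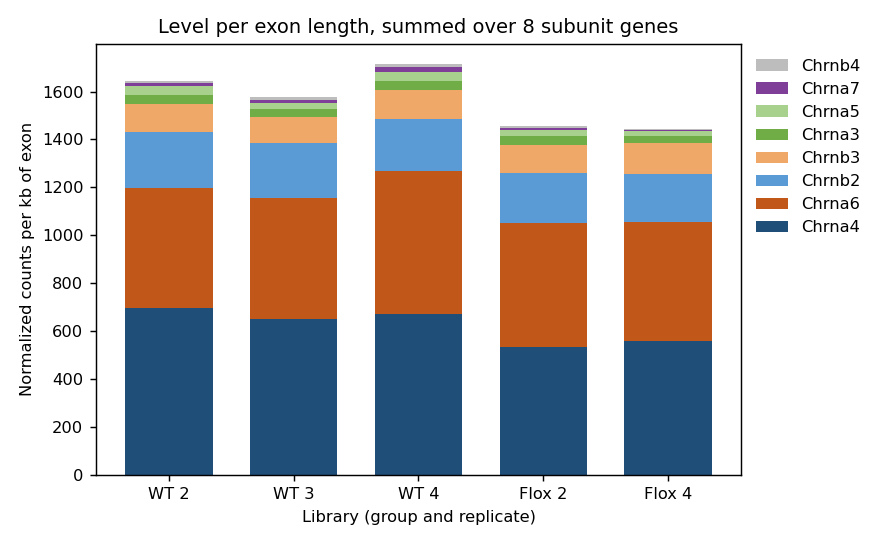
Normalized counts per kb of exon in each library, stacked over the 8 subunit genes from the most abundant (Chrna4, bottom) to the least (Chrnb4, top). The columns reach 1576 to 1713 in WT and 1454 and 1445 in Flox, and the lowest 4 segments make up nearly all of each column.

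Summed over the 8 genes, the level was 1645, 1576 and 1713 per kb in WT and 1454 and 1445 in Flox. Both Flox libraries were below all WT libraries, with means of 1645 ± 68.5 (SD, n = 3) and 1450 ± 6.81 (SD, n = 2), a ratio of 0.881. Of the Flox minus WT difference of -195 per kb, Chrna4 contributed -127, Chrna6 -27.5, Chrnb2 -23.8 and Chrna7 -10.8. The subunit with the largest fold difference thus carried little of the summed one. With scaling on the dopaminergic markers the difference of the mean log2 sums shrank from -0.18 to -0.03, so the lower sum was not seen relative to these markers. Of these markers 10 of 12 were themselves below 0, as given above.

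Chrna4, Chrna6, Chrnb2 and Chrnb3 made up 94.2%, 94.8% and 93.8% of the summed level in WT and 94.6% and 95.8% in Flox. Chrna6 and Chrnb3, the chains of the α6β3 receptors, made up 37.6%, 38.8% and 42.0% in WT and 43.5% and 43.4% in Flox. This share was higher in both Flox libraries, WT replicate 4 was nearest to them, and no test was made of it. Within libraries, the ratio of Chrna6 to Chrna4 per kb was 0.723, 0.774 and 0.886 in WT and 0.966 and 0.892 in Flox, with WT replicate 4 close to the Flox values. The ratio of Chrna4 to Chrnb2 was 2.97, 2.81 and 3.12 in WT and 2.58 and 2.80 in Flox. The ratio of Chrna6 to Chrnb3 overlapped between groups (4.35 to 4.88 in WT, 4.42 and 3.83 in Flox).

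The genes whose pattern over the 5 libraries was most like that of Chrna7 were Cysrt1, Fam13b and Sacm1l, out of 11522 genes with a mean of at least 100 normalized counts. Likeness was the root mean square difference of log2 values centred on the WT mean, and it was 0.073, 0.074 and 0.075 for these genes. Fam13b had 857, 817 and 1158 normalized counts in WT and 404 and 262 in Flox (DESeq2 log2 fold change -1.50 with SE 0.21, adjusted p = 1.93e-09). All 3 were, like Chrna7, highest in WT replicate 4 and lowest in Flox replicate 4. They were picked for this likeness over the same libraries, so their pattern is no further evidence on Chrna7.

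Of the other nicotinic subunit genes, of muscle, cochlear and other receptors, 5 of 8 were at or near 0. Chrnd had 0 counts in all 5 libraries, which allows up to 3 counts in each, and Chrna9, Chrna10, Chrne and Chrng had at most 3 counts in any library. Chrna1, Chrna2 and Chrnb1 were tested and did not pass. Chrna2, with a WT mean of 93.8 normalized counts, was the most abundant of them and had raw counts of 115, 46 and 118 in WT and 98 and 21 in Flox (DESeq2 log2 fold change -0.70 with SE 0.89, adjusted p = 0.741).

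Of 14 assembly factors and modulators of nicotinic receptors, 13 were tested and 0 were called at the fold threshold. In each direction 1 had a DESeq2 adjusted p under 0.05, where 4.25% of all genes tested did and were lower and 4.33% higher. Lynx1, a GPI-anchored toxin-like protein that dampens α4β2 and α7 receptors, had 18110, 16730 and 15870 normalized counts in WT and 13000 and 10210 in Flox (DESeq2 log2 fold change -0.54 with SE 0.12, adjusted p = 0.000843). Ly6h, a relative that lowers α7 at the cell surface, had 8842, 9389 and 7304 normalized counts in WT and 11550 and 12560 in Flox (DESeq2 log2 fold change 0.50 with SE 0.12, adjusted p = 0.00251). For both genes the groups were apart, lower in Flox for Lynx1 and higher for Ly6h. Neither adjusted p stayed under 0.05 with edgeR (0.0527 and 0.057) or, in DESeq2, without Flox replicate 4 (0.154 and 0.191), and that of Lynx1 was 0.108 with scaling on the dopaminergic markers. The chaperones of α7 assembly did not pass, with log2 fold changes of -0.29 for Ric3 (SE 0.13, DESeq2 adjusted p = 0.144) and 0.34 for Tmem35a, also called NACHO (SE 0.13, DESeq2 adjusted p = 0.0872). The median of the 13 was 0.04, beside -0.01 for all genes tested.

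**Figure D4:**
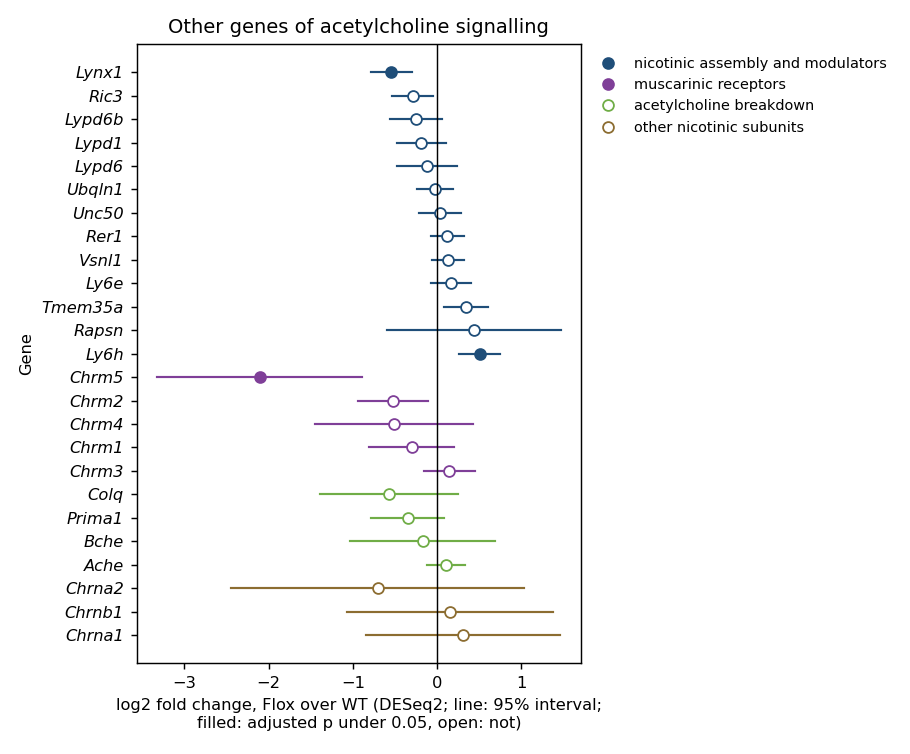
The log2 fold changes, Flox over WT, of the tested genes of 4 lists (receptor assembly and modulation, muscarinic receptors, acetylcholine breakdown, other nicotinic subunits), with 95% intervals as lines. Filled points (Lynx1, Ly6h and Chrm5) have a DESeq2 adjusted p under 0.05, and open points do not.

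Among the 5 muscarinic receptors, the G-protein-coupled receptors for acetylcholine, 1 was called, and it was lower. Over all genes tested, 1.46% were called lower. Chrm5, the receptor known from midbrain dopaminergic neurons, had raw counts of 23, 29 and 49 in WT and of 8 and 8 in Flox, so the groups were well apart at low counts. Its normalized means were 33.6 ± 11.9 (SD, n = 3) and 7.82 ± 0.189 (SD, n = 2), for a log2 fold change of -2.11 (SE 0.62, DESeq2 adjusted p = 0.0154). No gene called lower had a more negative value, but the median of the mean normalized counts of those genes was 385.5, far above Chrm5. With edgeR the adjusted p was 0.0504, and in DESeq2 without WT replicate 2, WT replicate 3 or Flox replicate 2 it was 0.0662, 0.0844 and 0.0996. Without either library numbered 4, and with the replicate block, DESeq2 gave no adjusted p for it. The median over the 5 was -0.51, and Chrm2, an autoreceptor of cholinergic neurons, had a log2 fold change of -0.52 (SE 0.21, DESeq2 adjusted p = 0.108). Chrm2 was called lower without WT replicate 4 (log2 fold change -0.64, DESeq2 adjusted p = 0.0412) and without Flox replicate 2 (-0.92, 0.00235), and Chrm5 was called in no fit that left out a library.

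Of the 4 genes of acetylcholine breakdown, 0 passed (DESeq2, 0 at an unadjusted p under 0.05 as well). Ache, acetylcholinesterase, was the most abundant, with 6970, 5872 and 5879 normalized counts in WT and 6895 and 6524 in Flox (DESeq2 log2 fold change 0.10 with SE 0.11, adjusted p = 0.685). Of the 3 cholinergic neuron markers, which would show RNA of neighbouring cholinergic cells, 1 was called lower, beside 1.46% of all genes tested. This was Slc5a7, the choline transporter. It had raw counts of 155, 85 and 73 in WT and 62 and 33 in Flox (DESeq2 log2 fold change -1.20 with SE 0.41, adjusted p = 0.0443). Chat and Slc18a3 overlapped between groups, and the summed normalized counts of the 3 markers ran from 172 to 435 in WT and were 244 and 141 in Flox. Of the habenular projection neuron markers, which come from cells rich in Chrna3 and Chrnb4, 0 of the 3 tested passed. Pou4f1 was below every WT library in both Flox libraries (DESeq2 log2 fold change -0.93 with SE 0.33, adjusted p = 0.055). Tac2 was above every WT library in both (DESeq2 log2 fold change 0.55 with SE 0.23, adjusted p = 0.126), and Nwd2 overlapped between groups. The part of cholinergic and habenular RNA in the subunit values was not tested.

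**Figure D5:**
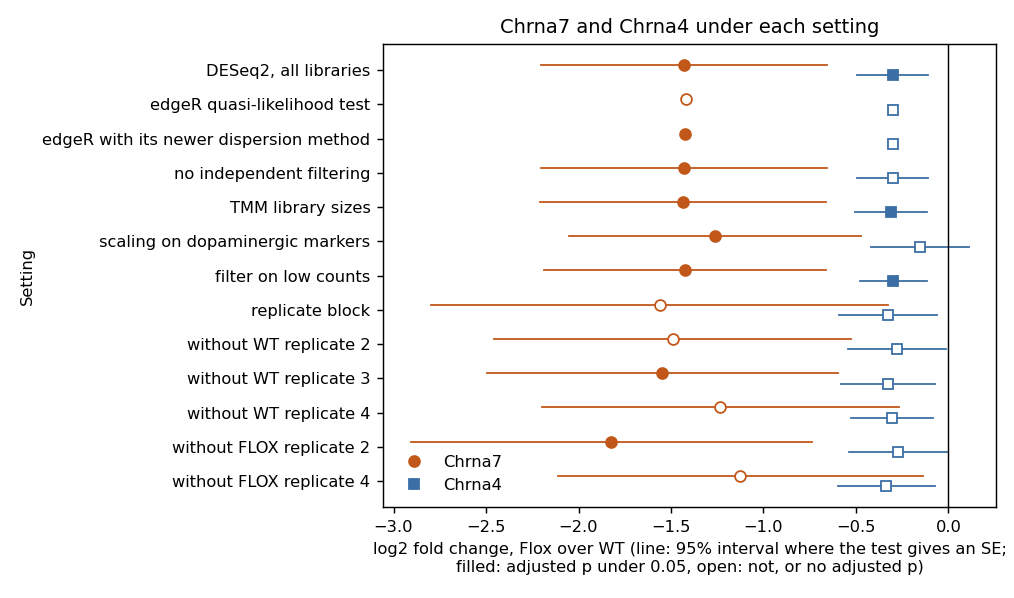
The log2 fold changes of Chrna7 (circles) and Chrna4 (squares) under DESeq2 with all libraries and 12 alternative settings, with 95% intervals where the test gives a standard error. Filled points have an adjusted p under 0.05, which held for Chrna7 in 7 and for Chrna4 in 2 of the 12 alternatives, and all values lie below 0.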

How the data were processed

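The raw counts per gene were made and deposited by the authors. Per their methods, poly(A)-selected, non-strand-specific paired reads were aligned with STAR to GRCm38 with GENCODE M24 and counted with HTSeq, whereas the submitters' processing notes name GRCm39, STAR version 2.7.9a, HTSeq version 0.11.3 and Trim Galore version 0.6.6, so the build is uncertain. The count table holds no coordinates. Coordinates, exon lengths and symbols here come from GENCODE M21 (GRCm38), which gave a symbol to 97.01% of gene IDs. Rows that name no gene stayed out of library sizes. Of all reads in the table, ambiguous ones were 5.617% to 5.782% and no-feature ones 3.176% to 4.445% per library.

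Counts were tested with DESeq2 version 1.42.0 (Wald test, two-sided, default size factors, independent filtering, Benjamini-Hochberg adjustment over all genes tested) in R version 4.3.3. The tool and both thresholds are those of the study's methods, whose version differs. A call needed a 1.5-fold difference and an adjusted p under 0.05. Alternatives were edgeR version 4.0.16, other scalings, a filter (at least 10 counts in at least 2 libraries), a replicate block and leaving out each library. Levels were divided by the union exon length, and summed levels and shares were given no test. Intervals are the log2 fold change plus and minus the normal quantile times the SE, at 95%. The named genes were the 8 members in every library, the genes of the acetylcholine lists with an adjusted p under 0.05 (or, in a list with none, the most abundant), Esrrg and Th as checks, and the 3 genes nearest in pattern to a called member. Others (Adar, Ric3, Tmem35a, Chrm2 and the markers) were named after their values were seen. The members and lists were chosen with earlier results of these data known.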

Additional observations from a re-analysis of the deposited data

How the results depend on the processing

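Chrna7 was lower in Flox under all 12 alternative fits, with log2 fold changes from -1.82 (without Flox replicate 2) to -1.12 (without Flox replicate 4). Its call was kept in 7 fits. It missed the threshold with edgeR's quasi-likelihood test (adjusted p = 0.0529) and without WT replicate 2 (0.0769), and DESeq2 gave no adjusted p in the other 3. With edgeR's newer dispersion method the adjusted p was 0.0497. The count of subunit genes called was 1, and it was 0 with edgeR's quasi-likelihood test (2 at an unadjusted p under 0.05), 0 with the replicate block, 0 to 1 when each library was left out, and 2 with no fold threshold, Chrna4 being the second. Chrna3 (0.068) and Chrna6 (0.078) turned positive with scaling on the dopaminergic markers. When each library was left out, Chrna3 ran from -0.236 to 0.052 and Chrna6 from -0.12 to 0.007. The other 6 subunit genes kept their direction in all 12.

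The summed level difference, -0.18 on the log2 scale, was -0.031 with scaling on the dopaminergic markers. The other alternatives moved it, and the share of Chrna6 and Chrnb3, by less than the WT spread.

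The count of other nicotinic subunits called went from 0 to 1 when each library was left out (Chrna2, without Flox replicate 2). Assembly factors and modulators called went from 0 to 1 with dopaminergic scaling (Ly6h), from 0 to 1 when each library was left out (Lynx1) and to 2 with no fold threshold. Muscarinic receptors called went from 1 to 0 with edgeR's quasi-likelihood test, with its newer dispersion method and with the replicate block, and ran from 0 to 1 when each library was left out, the 1 being Chrm2 in place of Chrm5. No acetylcholine breakdown gene was called under any alternative. All genes called numbered 497. They were 180 with edgeR's quasi-likelihood test (101 higher, 79 lower), 262 with its newer dispersion method, 209 with the replicate block, 1306 with no fold threshold, and 52 (without Flox replicate 4) to 893 (without Flox replicate 2) when each library was left out. Scaling on the dopaminergic markers gave 513 higher and 89 lower, against 275 and 222.

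Replicate numbers gave only 2 pairs, whose deviations correlated at 0.15 (number 2) and 0.107 (number 4), over 11522 genes. The deviations of the 2 Flox libraries from their own mean are mirror images, so these correlations are not independent of each other. They cannot settle whether libraries of the same number share more than the number. The serotonergic and noradrenergic sum was highest in both libraries numbered 2, as given above. DESeq2 with all libraries did not use the number, and the replicate block was an alternative. With the replicate block Chrna7 had a log2 fold change of -1.56 (SE 0.63) and no adjusted p. The newer edgeR method, DESeq2 without independent filtering and the transcript length were added after seeing the data. Where DESeq2 gave no adjusted p, its independent filtering of genes with low mean counts had left the gene out. The cause of the other lost calls was not tested. With 2 Flox pools and 21 to 101 raw counts per library for Chrna7 and Chrnb4, folds of these genes are imprecise.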
